A study of Mus musculus with 6 samples.

Results

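Genes of the Wnt pathway, which controls growth and branching of the mammary epithelium, were followed through a transition of mouse mammary epithelial cells to a mesenchymal state and back. The members were all genes in the deposited table whose symbol names a Wnt ligand, a Frizzled receptor, a secreted Sfrp or Dkk inhibitor or an R-spondin, together with *Lrp5*, *Lrp6*, *Ror1*, *Ror2*, *Axin1*, *Axin2*, *Lef1*, *Tcf7*, *Tcf7l2*, *Rnf43* and *Znrf3*. In all, 43 of the 17428 genes in the table were members. The RNA came from EpH4, a near-normal mouse mammary epithelial cell line, sequenced at 3 stages with 2 libraries each. E cells were untreated, M cells had received TGFβ1, an inducer of epithelial-to-mesenchymal transition, for 7 days, and RE (reverted epithelial) cells had then been kept for another 4 days in medium without TGFβ1. Per the labels, the base medium held serum and insulin at every stage, with TGFβ1 added for the M cells, and the cell line is a model of 1 origin only.

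Wnt proteins are secreted lipid-modified ligands that bind Frizzled receptors. In the canonical branch, the ligand also binds the co-receptors Lrp5 or Lrp6, the Axin scaffold is drawn away from the complex that destroys β-catenin, and β-catenin enters the nucleus to act with the TCF/LEF factors. R-spondins strengthen the signal by removing the ubiquitin ligases Rnf43 and Znrf3, which otherwise clear Frizzled from the surface, while Sfrp proteins bind the ligands themselves. Wnt5a and Wnt11 are the best known ligands of the other branches, in which Ror receptors and planar polarity proteins direct cell shape and movement. In the mammary gland, canonical signals are known for stem cell maintenance and Wnt5a for restraint of branching.

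The deposited values were coverage, that is, sequenced bases summed per gene, of which the libraries held between 35782513 and 47928557 reads' worth of 50 bases. Values are given as normalized coverage in ppm of the TMM-scaled library total, and log2 fold changes are on the scale of log2(ppm + 0.1), which understates changes of low genes. A gene was called in a comparison when its limma log2 fold change was beyond −1 or 1 with a Benjamini-Hochberg adjusted p below 0.01 over all 13893 genes tested. The floor was 3 reads' worth (150 bases), or 0.0635 to 0.0781 ppm, which covers counting error only. Log2 values of the 2 E libraries differed more (SD across genes 0.558) than those of the M (0.318) and RE libraries (0.309). Epithelial markers were present at every stage, with *Cdh1* between 244 and 327 ppm, *Krt8* between 122 and 323 ppm and *Krt18* between 270.1 and 880 ppm, whereas *Krt19* did not exceed 0.162 ppm. Of 4 basal markers, *Krt5* did not exceed 0.478 ppm, while *Krt14* was between 223 and 755 ppm and *Trp63* between 44.7 and 173 ppm. *Acta2* was at 75.6 and 82.7 ppm in the M libraries and at most 4.05 ppm elsewhere. The basal sum was 306 to 374 ppm in the E and 787 to 893 ppm in the M libraries. In the RE libraries it was 499 to 501 ppm. *Krt14* was highest in the M libraries (666.5 and 755 ppm). *Trp63* went the other way, lowest in the M (44.7 and 54.9 ppm) and highest in the RE libraries (173 and 158 ppm). The low *Krt5* was also highest in the RE libraries (0.466 and 0.478 ppm). The summed level of 5 mesenchymal markers was 123 and 149 ppm in the E libraries and 952 and 1130 ppm in the M libraries. In the RE libraries the sum was 992 and 1200 ppm, but its members moved in different directions after withdrawal. *Vim* fell from 86.4 and 70.9 ppm (M) to 21.6 and 24.3 ppm (RE). *Col1a1* fell from 555.4 and 438.5 ppm to 271.1 and 201.8 ppm. Both stayed above the E libraries (at most 6.52 and 32.8 ppm). *Pdgfrb*, the largest part of the RE sum, rose from 457.7 and 409.1 ppm to 810.7 and 688.5 ppm. *Pdgfra* and the low *Dcn* also rose. *Ptprc*, *Cd3e*, *Kdr* and *Adipoq*, markers of blood, endothelial and fat cells, stayed at or under the floor in all libraries, while the endothelial gene *Cdh5* was at 2.33 and 2.07 ppm in the M libraries and at most 0.0910 ppm elsewhere. The endothelial markers *Pecam1* (0.180 to 0.429 ppm) and *Tek* (0.0842 to 0.254 ppm) were low but above the floor in all libraries. The blood marker *Cd68* was between 5.17 and 9.18 ppm. *Cd79a*, another blood marker, was above the floor in part of the libraries, at most at 0.194 ppm. The fat cell marker *Fabp4* was at 8.98 and 3.10 ppm in the E libraries, at most 0.0561 ppm in the M libraries and at 2.22 and 1.87 ppm in the RE libraries. The summed level of 7 epithelial markers was lowest in the RE libraries, 858 and 899 ppm against at least 1330 ppm in the others. *Krt18*, *Krt8* and *Cldn4* were lowest there, with *Krt18* at 270.1 and 312 ppm against at least 549.8 ppm elsewhere. *Cldn3* was instead lowest in the M libraries (54.7 and 44.9 ppm, against 62.8 and 61.4 ppm in the RE libraries). So was *Cldn7* (34.2 and 32.7 against 51.7 and 47.4 ppm), and *Cdh1* overlapped between the stages. The part of these marker differences in the results was not tested. In bulk RNA, fewer cells that express a gene and less RNA per cell cannot be told apart.

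The stretches 250 bases upstream of the start sites are printed for 6 called members, 4 of them highest in the M cells (*Wnt11*, *Wnt9a*, *Wnt1* and *Rspo1*) and *Wnt7a* and *Ror1*, whose RE libraries stood apart. These 6 were picked after their values were seen. They are read 5′ to 3′ on the strand of the gene, from RefSeq on GRCm38.p6, a newer build than the NCBI-m37 genome of the study.
Wnt11 (chr7:98834862-98835111, plus strand): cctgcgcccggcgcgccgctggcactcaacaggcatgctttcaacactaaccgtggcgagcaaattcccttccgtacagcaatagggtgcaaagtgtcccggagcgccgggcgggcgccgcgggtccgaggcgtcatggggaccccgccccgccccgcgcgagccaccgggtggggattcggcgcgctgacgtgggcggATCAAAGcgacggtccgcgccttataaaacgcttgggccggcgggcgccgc
Wnt9a (chr11:59306680-59306929, plus strand): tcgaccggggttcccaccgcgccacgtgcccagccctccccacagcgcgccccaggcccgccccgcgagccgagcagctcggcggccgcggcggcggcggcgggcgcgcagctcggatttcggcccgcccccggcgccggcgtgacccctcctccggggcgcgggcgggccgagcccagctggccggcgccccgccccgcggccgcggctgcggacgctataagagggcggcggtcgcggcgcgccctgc
Wnt1 (chr15:98789607-98789856, plus strand): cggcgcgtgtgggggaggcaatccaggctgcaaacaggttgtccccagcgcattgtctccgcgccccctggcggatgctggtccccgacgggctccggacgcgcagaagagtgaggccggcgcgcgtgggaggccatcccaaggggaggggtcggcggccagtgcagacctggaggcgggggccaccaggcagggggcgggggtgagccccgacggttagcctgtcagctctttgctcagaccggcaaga
Rspo1 (chr4:124986180-124986429, plus strand): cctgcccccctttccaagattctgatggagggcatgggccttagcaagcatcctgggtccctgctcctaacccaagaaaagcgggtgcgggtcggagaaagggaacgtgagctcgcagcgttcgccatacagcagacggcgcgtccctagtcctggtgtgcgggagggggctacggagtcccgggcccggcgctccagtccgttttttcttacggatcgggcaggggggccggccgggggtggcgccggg
Wnt7a (chr6:91411354-91411603, minus strand): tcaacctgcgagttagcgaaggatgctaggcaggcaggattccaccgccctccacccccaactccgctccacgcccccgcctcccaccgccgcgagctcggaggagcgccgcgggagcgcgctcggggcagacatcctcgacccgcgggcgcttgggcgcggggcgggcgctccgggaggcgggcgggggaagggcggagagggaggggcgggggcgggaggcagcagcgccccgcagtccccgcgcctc
Ror1 (chr4:100095541-100095790, plus strand): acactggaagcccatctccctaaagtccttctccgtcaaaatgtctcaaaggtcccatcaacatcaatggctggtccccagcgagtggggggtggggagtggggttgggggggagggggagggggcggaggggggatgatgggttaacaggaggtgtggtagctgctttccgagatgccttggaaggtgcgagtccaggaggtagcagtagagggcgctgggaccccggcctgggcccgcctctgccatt
Capitals mark a TCF/LEF motif, searched as CTTTGAT or CTTTGAA on both strands. The match lies in the printed window of *Wnt11*, where it begins 51 bases before the start. A further window of *Wnt11* (chr7:98838595-98838844), not printed, held no match. Of all 32851 windows, 7.48% held this motif. The table had windows for 10 of the 16 called members, 13 windows in all, and 1 of these (7.69%) held it. Among the same 13 windows, the E-box CAGGTG was found in 1, that of *Fzd5*, against 17.2% of all windows, and the AP-1 motif TGAGTCA and the TEAD motif GGAATG in 0, against 4.46% and 12.6% of all windows. The printed windows were rich in G and C, from 62.4% in *Ror1* to 84.4% in *Wnt9a*, against a median of 52.4% over all windows.

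Among the ligands, *Wnt11*, *Wnt9a* and *Wnt1* were highest in the M cells, *Wnt7a* and *Wnt7b* were lowest in the RE cells, and *Wnt5a* was highest in the RE cells. *Wnt11*, a ligand of the planar polarity branch, was at 1.09 and 1.46 ppm in the E libraries, 32.0 and 33.7 ppm in the M libraries and 0.440 and 0.986 ppm in the RE libraries. The M libraries stood far above all others, and the RE libraries lay just below the E libraries. Its mean in the M libraries was 25.7 times the E mean (log2 fold change 4.59, standard error (SE) 0.34, limma adjusted p = 7.32e-05) and dropped after withdrawal (log2 fold change −5.43 in M vs. RE, SE 0.34, limma adjusted p = 3.96e-05). *Wnt9a*, a ligand that mostly acts through β-catenin, was at 7.93 and 11.6 ppm in the E libraries, 47.2 and 44.6 ppm in the M libraries and 3.81 and 3.77 ppm in the RE libraries. The stages did not overlap, and the RE cells lay below the cells they started from. The log2 fold change was 2.25 in E vs. M (SE 0.20, limma adjusted p = 0.00018), −3.56 in M vs. RE (SE 0.20, limma adjusted p = 2.84e-05) and −1.31 in E vs. RE (SE 0.20, limma adjusted p = 0.00387). *Wnt1*, the classical canonical ligand, was low throughout, with 350 and 351 bases in the E libraries, 1888 and 3166 in the M libraries and 662 and 492 in the RE libraries. As normalized coverage this was 0.162 and 0.183 ppm, 0.905 and 1.54 ppm, and 0.280 and 0.224 ppm, respectively. Its higher level with TGFβ1 (log2 fold change 2.24, limma adjusted p = 0.00221) and its decrease in the RE cells (−1.87, limma adjusted p = 0.00632) rested on low coverage, and with a pseudocount of 1 ppm neither passed the fold threshold (0.91 and −0.81).

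*Wnt7a* and *Wnt7b*, close relatives made by epithelia, were lowest in the RE cells. *Wnt7b* was at 127 and 185 ppm in the E libraries, 222 and 199 ppm in the M libraries and 61.0 and 76.5 ppm in the RE libraries. Both RE libraries lay below all others, and *Wnt7b* was called in M vs. RE (log2 fold change −1.62, SE 0.20, limma adjusted p = 0.00103) and in E vs. RE (−1.16, SE 0.20, limma adjusted p = 0.00609). *Wnt7a* was at 22.9 and 47.8 ppm in the E libraries, 18.2 and 19.3 ppm in the M libraries and 1.94 and 3.08 ppm in the RE libraries. The E libraries were unequal, both of them above the M libraries, and *Wnt7a* was not called in E vs. M. It was called in both comparisons with the RE cells, with the mean in the RE cells 7.48 times lower than in the M cells and 14.1 times lower than in the E cells. The log2 fold changes were −2.89 in M vs. RE (SE 0.35, limma adjusted p = 0.000891) and −3.71 in E vs. RE (SE 0.35, limma adjusted p = 0.000669). *Wnt5a*, which signals mainly outside the β-catenin branch, moved the other way. It was at 13.4 and 14.9 ppm in the E libraries, 16.0 and 18.2 ppm in the M libraries and 30.4 and 33.4 ppm in the RE libraries, and was called in E vs. RE (log2 fold change 1.17, SE 0.15, limma adjusted p = 0.00208). In M vs. RE its limma adjusted p was 0.00418, but the log2 fold change of 0.89 was under the threshold.

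**Figure D1:**
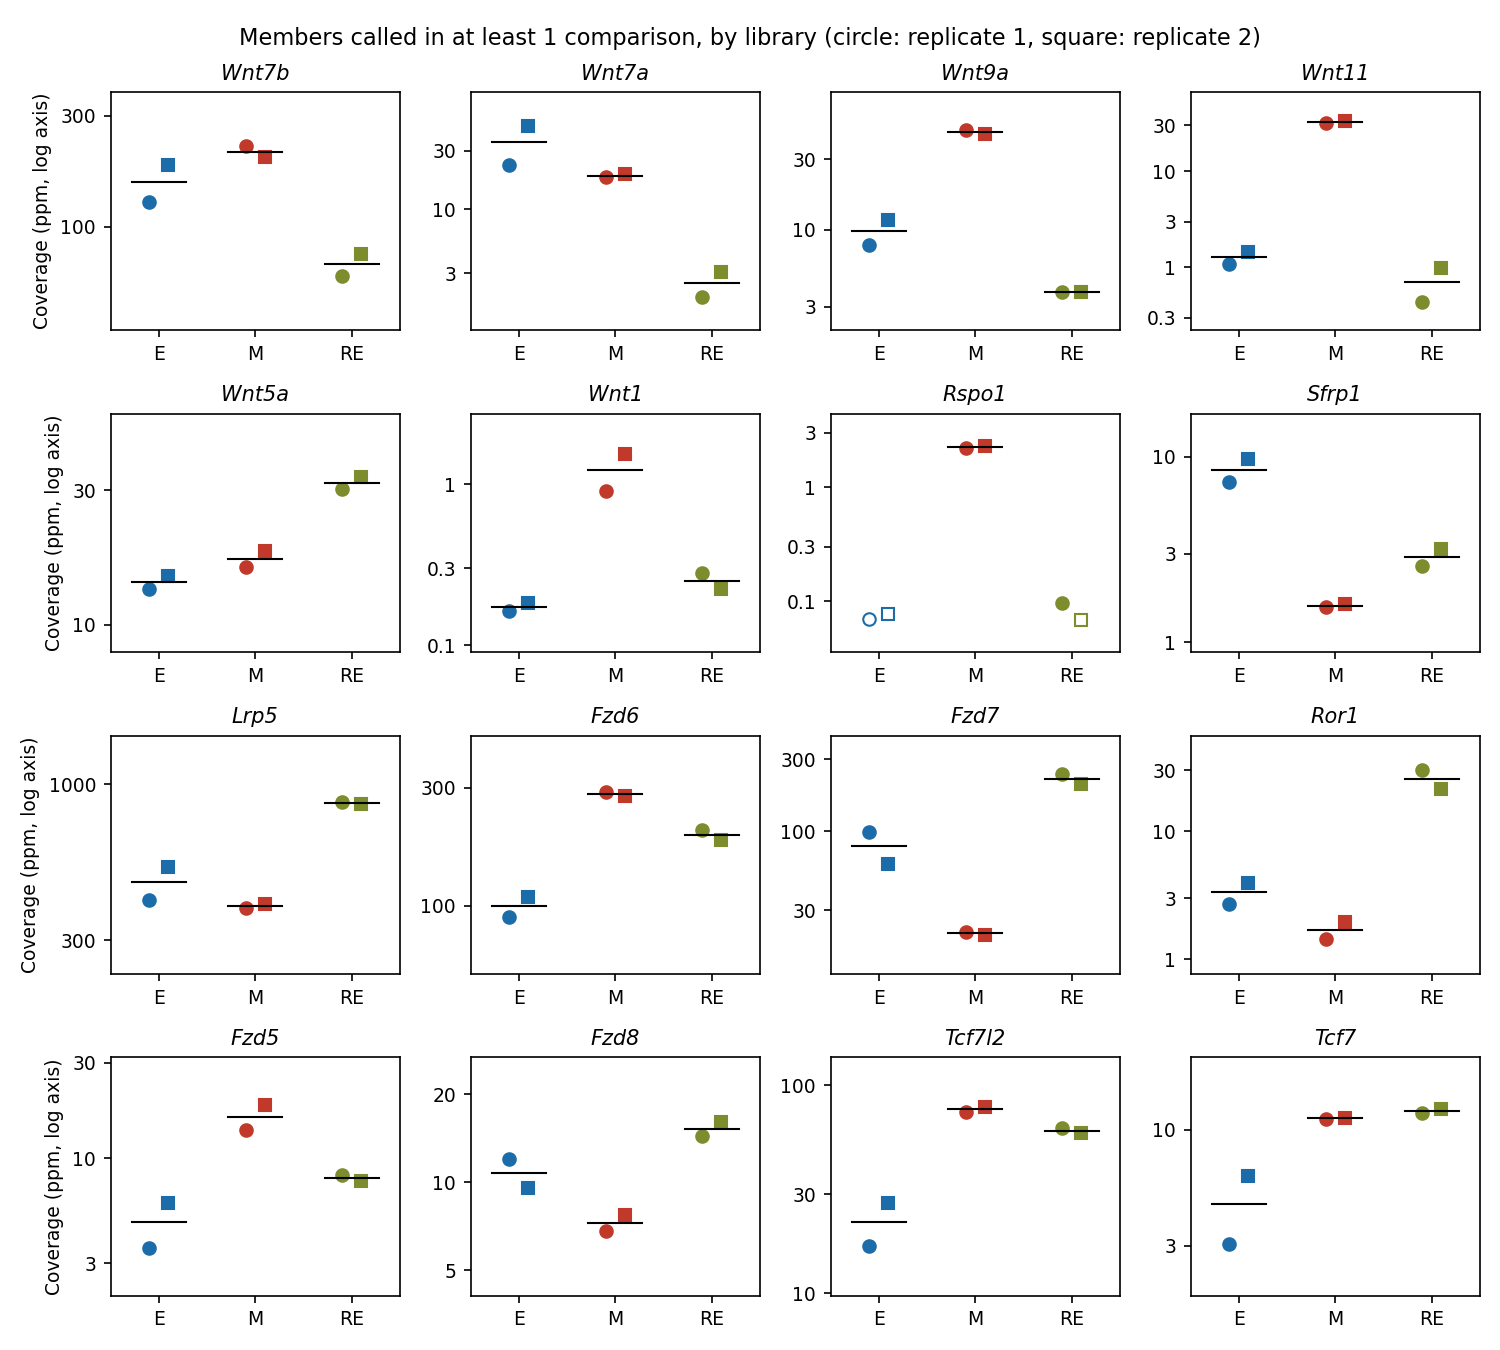
Normalized coverage in ppm (log axis) of the 16 members called in at least 1 comparison, in each E, M and RE library (circles, replicate 1; squares, replicate 2; open symbols, at or under the floor and drawn at it), with the mean of each stage as a black line where it exceeds the floor. *Wnt11* stands at 32.0 and 33.7 ppm in the M libraries and at or below 1.46 ppm elsewhere, and *Ror1* at 29.9 and 21.4 ppm in the RE libraries and at or below 3.97 ppm elsewhere.

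Of the other ligands tested, *Wnt10a*, *Wnt10b*, *Wnt16*, *Wnt2b*, *Wnt4* and *Wnt5b* were not called in any comparison. *Wnt10a* had the highest level among them, at 36.4 and 36.1 ppm in the E libraries, 21.9 and 23.0 ppm in the M libraries and 24.5 and 37.8 ppm in the RE libraries, with a log2 fold change of −0.69 in E vs. M (limma adjusted p = 0.0316). *Wnt16* was between 0.0364 and 0.464 ppm, close to the floor, and its highest values were in the M libraries (log2 fold change 1.33 in E vs. M, limma adjusted p = 0.0377, and −1.44 in M vs. RE, limma adjusted p = 0.0352). It passed the filter on low coverage only through the M libraries (570 and 956 bases), the group in which it was high, so these adjusted p values are limited support. *Wnt6*, *Wnt8a* and *Wnt8b* were too low to be tested.

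Expressed per length (ppm per kb of exons), which allows genes to be set against each other, *Wnt7b* was the leading ligand at every stage, with means of 33.8 (E), 45.6 (M) and 14.9 (RE). It was followed by *Wnt10a* (14.7) and *Wnt7a* (11.1) in the E cells, by *Wnt9a* (13.8), *Wnt10a* (9.10) and *Wnt11* (9.09) in the M cells, and by *Wnt10a* (12.6) and *Wnt5a* (4.54) in the RE cells. The 15 ligands together were at 54.6 and 76.6 in the E libraries, 89.1 and 85.3 in the M libraries and 30.4 and 39.9 in the RE libraries, so the stages did not overlap. *Wnt7b* made up between 41.5% and 54.1% of this sum in every library. The share of *Wnt9a* was 15.9% and 15.7% in the M libraries and at most 4.54% elsewhere, and that of *Wnt11* was 9.95% and 10.9% in the M libraries and at most 0.683% elsewhere. In the RE libraries *Wnt5a* held 14.2% and 11.9%, against at most 3.49% in the E and M libraries, and *Wnt7a* held 2.01% and 2.43%, against 13.2% and 19.7% in the E libraries. These shares are a description of the ligands in the table and depend on the exon lengths used.

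**Figure D2:**
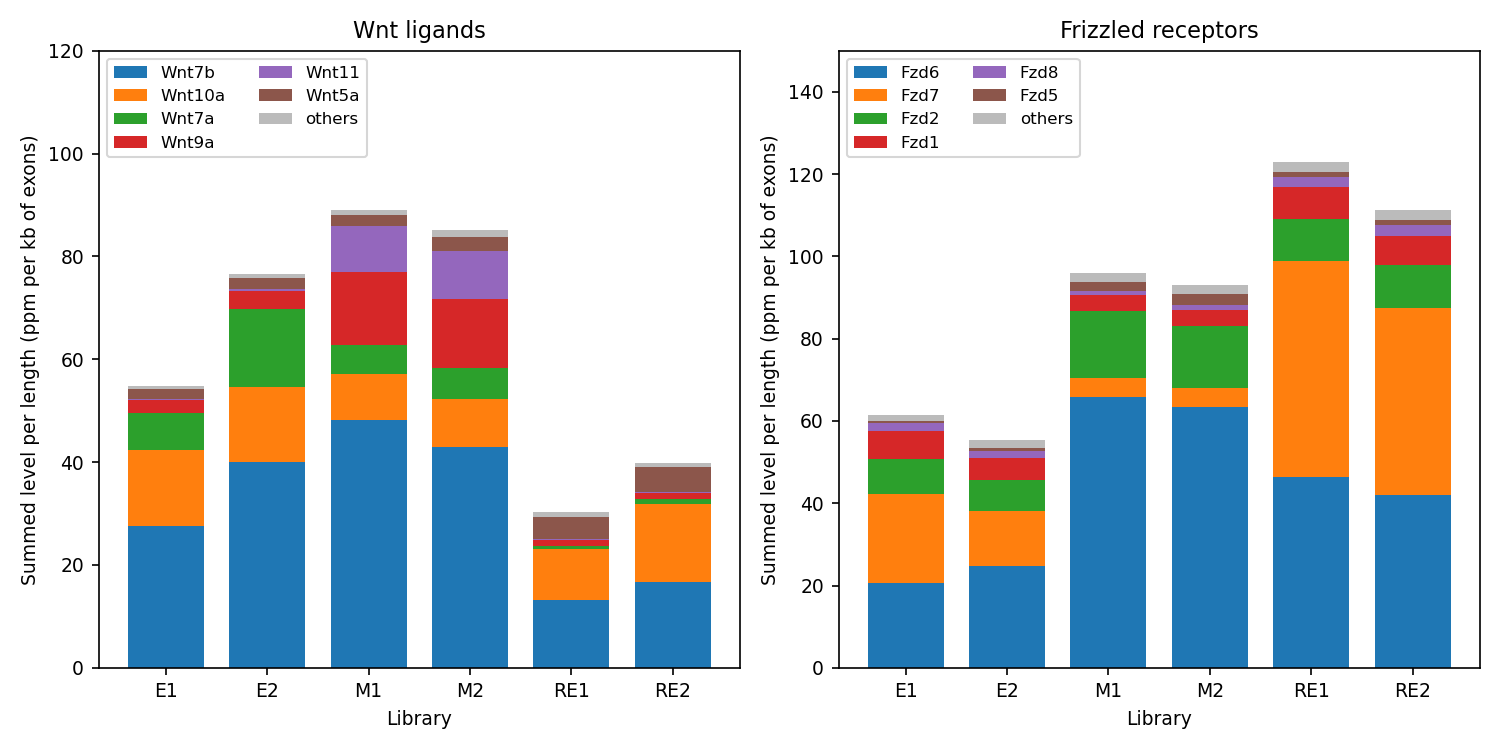
Level per length (ppm per kb of exons) of the Wnt ligands and of the Frizzled receptors, stacked by gene, in each library (E1 and E2, M1 and M2, RE1 and RE2; others, the remaining members of the family). The ligand sum is lowest in the RE libraries (30.4 and 39.9) while the Frizzled sum is highest there (123 and 111), and the Frizzled sum is mostly *Fzd6* in the M libraries (68.5% and 68.2%).

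*Rspo1* was the R-spondin found in the M cells and hardly anywhere else. It had 0 bases in both E libraries, 4612 and 4778 bases in the M libraries and 228 and 50 bases in the RE libraries, that is 2.21 and 2.32 ppm in the M libraries and 0.0965 and 0.0228 ppm in the RE libraries. Against the floor, it was at least 30.7-fold higher in M than in E cells (limma adjusted p = 0.000108). It fell in the RE cells (limma adjusted p = 0.000244), where 1 of the libraries was under the floor. *Rspo1* passed the filter on low coverage only through the M libraries, the group in which it was high, so these adjusted p values are limited support. *Rspo3* was not called. It was at 2.17 and 1.12 ppm in the E libraries and between 3.32 and 3.93 ppm in the M and RE libraries, which all lay above the E libraries (log2 fold change 1.10, limma adjusted p = 0.0243 in E vs. M, and 1.23, limma adjusted p = 0.0222 in E vs. RE). *Rspo4* was too low to be tested.

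Of the secreted inhibitors, *Sfrp1*, which binds Wnt ligands and is a known product of mammary epithelium, fell with TGFβ1 and did not return to its starting level. It was at 7.29 and 9.72 ppm in the E libraries, 1.552 and 1.601 ppm in the M libraries and 2.57 and 3.17 ppm in the RE libraries. The 3 stages did not overlap, with log2 fold changes of −2.35 in E vs. M (SE 0.23, limma adjusted p = 0.00025) and −1.53 in E vs. RE (SE 0.23, limma adjusted p = 0.0034). The value from M to RE was 0.82 (limma adjusted p = 0.0314), which was not called. *Dkk3*, a divergent member of the Dickkopf family, was at 0.128 and 0.109 ppm in the E libraries, 0.304 and 0.210 ppm in the M libraries and 0.783 and 0.502 ppm in the RE libraries. Its log2 fold change of 1.74 in E vs. RE just missed a call (limma adjusted p = 0.011). Without E replicate 1 or 2 in turn the value was 1.79 and 1.68, from fits with 1 library left in the E group. *Dkk4*, *Sfrp4* and *Sfrp5* were too low to be tested.

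The receptors changed in several directions, with *Fzd6* and *Fzd5* raised in the M cells, and *Fzd7*, *Ror1*, *Lrp5* and *Fzd8* raised from M to RE. *Fzd7*, a receptor known from basal mammary and stem cells, was at 98.2 and 60.9 ppm in the E libraries, 21.6 and 20.5 ppm in the M libraries and 238 and 206 ppm in the RE libraries. It fell with TGFβ1 and rose past its starting level after withdrawal, without overlap between stages. The log2 fold change was −1.87 in E vs. M (SE 0.22, limma adjusted p = 0.000611), 3.39 in M vs. RE (SE 0.22, limma adjusted p = 4.7e-05) and 1.52 in E vs. RE (SE 0.22, limma adjusted p = 0.00308). *Fzd6*, a receptor best known from planar polarity, was at 89.6 and 109 ppm in the E libraries, 288 and 278 ppm in the M libraries and 203 and 184 ppm in the RE libraries. It rose in the M cells (1.52, SE 0.14, limma adjusted p = 0.000213), and the RE libraries lay between the other stages, with a log2 fold change of 0.97 against E (limma adjusted p = 0.00319) that was just under the fold threshold. *Fzd5* was at 3.583 and 5.996 ppm in the E libraries, 13.8 and 18.4 ppm in the M libraries and 8.31 and 7.74 ppm in the RE libraries, and was called in E vs. M (1.76, limma adjusted p = 0.00192). *Fzd8* was at 12.0 and 9.58 ppm in the E libraries, 6.82 and 7.72 ppm in the M libraries and 14.5 and 16.1 ppm in the RE libraries, and was called in M vs. RE (1.06, limma adjusted p = 0.00424), close to the fold threshold.

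*Ror1*, a receptor for Wnt5a that is scarce in most adult tissues, had the largest log2 fold change among the receptors. It was at 2.70 and 3.97 ppm in the E libraries, 1.44 and 1.94 ppm in the M libraries and 29.9 and 21.4 ppm in the RE libraries, so that the RE libraries stood apart. Its mean after withdrawal was 7.70 times the E mean (log2 fold change 2.91, SE 0.28, limma adjusted p = 0.000659) and 15.2 times the M mean (3.84, SE 0.28, limma adjusted p = 7.07e-05). Its ligand *Wnt5a* was also highest in the RE cells, as given above, while *Ror2*, the related receptor, had at most 300 bases in any library and was not tested. *Lrp5*, the co-receptor of the canonical branch, was at 407.5 and 529 ppm in the E libraries, 385 and 396 ppm in the M libraries and 875 and 856 ppm in the RE libraries. It was called in M vs. RE (1.15, SE 0.16, limma adjusted p = 0.00163). Against E its log2 fold change was 0.90 (limma adjusted p = 0.00638), under the fold threshold. *Lrp6* was at 93.5 and 196 ppm in the E libraries and between 180 and 212 ppm in the M and RE libraries, and was not called.

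The other Frizzled genes were not called. *Fzd2* had a log2 fold change of 0.96 in E vs. M (limma adjusted p = 0.00148) and −0.61 in M vs. RE (limma adjusted p = 0.0136), and *Fzd1* ran the other way, with −0.63 in E vs. M (limma adjusted p = 0.0166) and 0.94 in M vs. RE (limma adjusted p = 0.00406). *Fzd2* ranged from 27.2 to 59.3 ppm and *Fzd1* from 15.8 to 32.8 ppm over the libraries. *Fzd4*, between 2.93 and 10.9 ppm, had 1.08 in E vs. M (limma adjusted p = 0.0248) and 1.34 in E vs. RE (limma adjusted p = 0.0155). *Fzd3* lay between 9.72 and 12.3 ppm in all libraries, and *Fzd9* between 0.0819 and 0.443 ppm. Per length, *Fzd6* and *Fzd7* led the family. *Fzd6* made up 33.4% and 44.8% of the summed Frizzled level in the E libraries, 68.5% and 68.2% in the M libraries and 37.7% and 37.8% in the RE libraries. The shares of *Fzd7* were 35.3% and 24.3%, 4.97% and 4.86%, and 42.7% and 40.8%, respectively. Within the receptor class, *Lrp5* had the highest level per length of all, with means of 77.9 (E), 65.0 (M) and 144 (RE) ppm per kb.

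Of the TCF/LEF factors, which bring β-catenin to DNA, *Tcf7l2* rose with TGFβ1 and stayed high. It was at 16.8 and 27.3 ppm in the E libraries, 74.7 and 79.0 ppm in the M libraries and 62.3 and 58.8 ppm in the RE libraries. Both later stages lay above the E libraries, with log2 fold changes of 1.84 in E vs. M (SE 0.22, limma adjusted p = 0.000633) and 1.49 in E vs. RE (SE 0.22, limma adjusted p = 0.00312). *Tcf7* was at 3.08 and 6.19 ppm in the E libraries, 11.2 and 11.3 ppm in the M libraries and 11.9 and 12.3 ppm in the RE libraries. The log2 fold changes were 1.34 in E vs. M (limma adjusted p = 0.00997), at the edge of a call, and 1.45 in E vs. RE (limma adjusted p = 0.011), which was not called. The size of the *Tcf7* fold change moved with the unequal E libraries: without E replicate 1 the E vs. M value was 0.85, and without E replicate 2 it was 1.81. The call, with its adjusted p at the threshold, was lost under 11 of 15 settings, most of which kept both E libraries. *Lef1* had at most 100 bases in any library and was at the floor throughout.

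Of the members, the Axin scaffolds and the receptor ubiquitin ligases were not called. *Axin2*, the most used readout of β-catenin signalling, had between 973 and 2099 bases per library, or 0.450 to 0.889 ppm. Its log2 fold changes were 0.28 in E vs. M (SE 0.31, limma adjusted p = 0.5), 0.18 in M vs. RE (SE 0.31, limma adjusted p = 0.697) and 0.46 in E vs. RE (SE 0.31, limma adjusted p = 0.294), and differences of these sizes could not be told from the spread between libraries. The constitutive scaffold *Axin1* lay between 153 and 206 ppm. *Rnf43*, a ubiquitin ligase that removes Frizzled receptors, was at 1.02 and 2.27 ppm in the E libraries, 0.264 and 0.175 ppm in the M libraries and 0.541 and 0.137 ppm in the RE libraries. All M and RE libraries lay below both E libraries, but with these spreads the log2 fold changes of −2.36 in E vs. M (SE 0.55, limma adjusted p = 0.0121) and −2.06 in E vs. RE (SE 0.55, limma adjusted p = 0.0282) were not called. Without E replicate 1 or 2 in turn, the E vs. M value was −2.90 and −1.84. In these fits the E group held 1 library, so the unequal E libraries no longer entered the spread. The related ligase *Znrf3* was at 14.3 and 40.0 ppm in the E libraries and between 29.6 and 35.9 ppm in the others, and was not called.

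**Figure D3:**
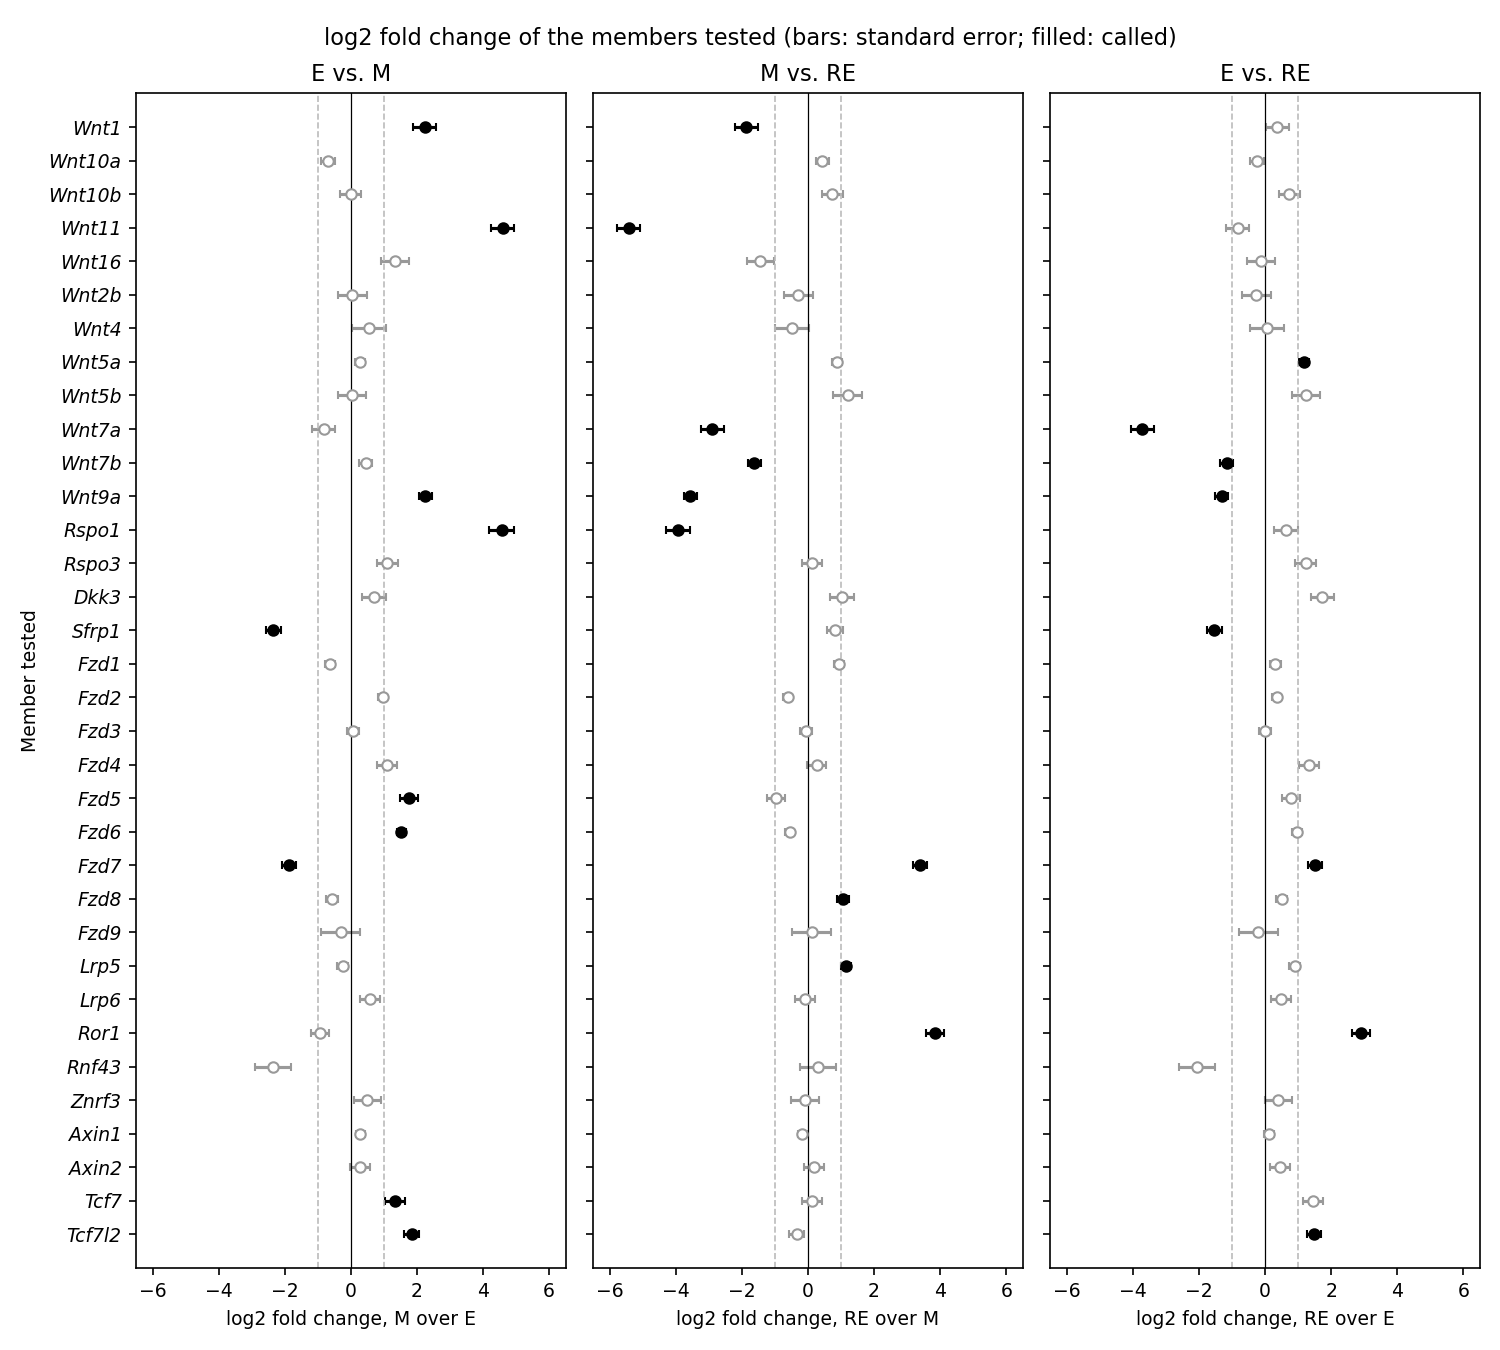
log2 fold change with its SE for the 34 members tested, in E vs. M, M vs. RE and E vs. RE (positive, higher in the second stage; filled points, called; dashed lines, log2 fold changes of −1 and 1). Called values run from −2.35 to 4.59 in E vs. M, from −5.43 to 3.84 in M vs. RE and from −3.71 to 2.91 in E vs. RE.

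Of the 43 members, 34 passed the filter on low coverage (at least 500 bases in at least 2 libraries), and the other 9 had at most 505 bases in any library. In E vs. M, 10 of the 34 were called (29.4%, against 17% of all genes tested), 8 of them up and 2 down with TGFβ1 (8.58% and 8.39% of all genes). In M vs. RE, 10 were called (29.4%, against 12.9%), 4 up and 6 down after withdrawal (8.08% and 4.79%). In E vs. RE, 8 were called (23.5%, against 9.37%), 4 in each direction (6.2% higher and 3.17% lower). The median log2 fold change of the 34 was 0.37, 0.02 and 0.43 in the 3 comparisons, against 0, −0.02 and 0.01 over all genes tested. Each library enters a pair of these comparisons, so the comparisons are not independent. By class, 5 of 12 ligands were lower and 0 higher in M vs. RE, and 4 of 12 receptors were higher and 0 lower. In all, 16 members were called in at least 1 comparison and 18 in none. The share of all genes called in at least 1 comparison was not taken, so these counts only describe the members.

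The 11 calls that held under every setting that gave a value were those of *Wnt11*, *Wnt9a*, *Rspo1*, *Fzd6*, *Fzd7* and *Sfrp1* in E vs. M and of *Wnt11*, *Wnt9a*, *Rspo1*, *Fzd7* and *Ror1* in M vs. RE. Without M replicate 1 or 2, fewer members and fewer of all genes tested were called in E vs. M. *Fzd5* (1.97 and 1.55), *Tcf7* (1.35 and 1.34) and *Wnt1* (2.60 and 1.89) were lost in both cases and *Tcf7l2* (1.80) without M replicate 2. In M vs. RE, fewer members and fewer of all genes were called without M replicate 1, M replicate 2 or RE replicate 1. The losses there were *Wnt7a* (−2.93, −2.85 and −2.57), *Wnt7b* (−1.54, −1.70 and −1.46), *Lrp5* (1.13, 1.17 and 1.13), *Fzd8* (0.97, 1.15 and 1.13) and *Wnt1* (−2.23, −1.52 and −1.98). *Rspo1* gave no value without M replicate 1 or 2, since it then failed the filter on low coverage. Without RE replicate 2, *Lrp5* (1.16), *Fzd8* (0.98) and *Wnt1* (−1.75) were lost. No call in E vs. RE held throughout: 0 of the members were called without RE replicate 1, 2 without RE replicate 2, 3 without either M library and 15 without E replicate 2, and over all genes tested 44, 160, 673, 676 and 2348 were called in these fits against 1302. The fold changes moved less, and without RE replicate 1 they were −3.38 for *Wnt7a*, 2.67 for *Ror1*, 1.41 for *Fzd7*, 1.45 for *Tcf7l2*, −1.38 for *Sfrp1*, 1.24 for *Wnt5a*, −1.32 for *Wnt9a* and −1.0 for *Wnt7b*. Without E replicate 2 the *Wnt7b* value was −0.89, under the fold threshold.

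The pathway beyond the members was read from a list of 104 further genes in the table, for ligand secretion, surface modulators, cytoplasmic and nuclear transducers, planar polarity and calcium signalling, and commonly used β-catenin targets. Of the 95 tested, 21 were called in E vs. M (13 up and 8 down with TGFβ1), 24 in M vs. RE (16 up and 8 down after withdrawal) and 18 in E vs. RE (15 up and 3 down). The split in E vs. M depended on the scaling, with 8 up and 12 down when library totals were used. These are 22.1%, 25.3% and 18.9% of the list, against the 17%, 12.9% and 9.37% of all genes given above. A total of 35 were called in at least 1 comparison, a count without a share over all genes beside it.

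In ligand secretion, *Gpr177*, now called Wls, which carries Wnt proteins to the cell surface, was at 207 and 196 ppm in the E libraries, 472 and 421 ppm in the M libraries and 457 and 359 ppm in the RE libraries. It was called higher in E vs. M (log2 fold change 1.14, limma adjusted p = 0.00126) and in E vs. RE (1.01, limma adjusted p = 0.00404), the latter at the edge of the fold threshold. *Notum*, an enzyme that strips the lipid from Wnt ligands, was at 1.12 and 0.891 ppm in the E libraries, at the floor in the M libraries and at 1.22 and 1.23 ppm in the RE libraries. It was at least 13.9-fold higher in the E and at least 16.9-fold higher in the RE cells than in the M cells (limma adjusted p = 0.000324 and 0.000249). At the surface, *Lgr4*, an R-spondin receptor, was at 26.2 and 25.3 ppm in the E libraries, 31.9 and 34.7 ppm in the M libraries and 90.6 and 84.2 ppm in the RE libraries, and was called in E vs. RE (1.76, limma adjusted p = 0.000345) and M vs. RE (1.39, limma adjusted p = 0.000248). Its relative *Lgr6* was lowest in the RE libraries, at 14.8 and 17.5, 32.7 and 32.3, and 5.26 and 5.16 ppm (−2.62 in M vs. RE, limma adjusted p = 3.5e-05). *Reck* was called in M vs. RE (1.58). *Lrp4*, a receptor that binds Wnt inhibitors such as sclerostin, was at 1.61 and 2.81 ppm in the E libraries, 40.0 and 54.9 ppm in the M libraries and 8.05 and 6.42 ppm in the RE libraries (4.39 in E vs. M, limma adjusted p = 4.7e-05).

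Among the transducers, 1 of the 25 cytoplasmic genes was called for E vs. M (4%, against 17% of all genes), 2 for M vs. RE (8%, against 12.9%) and 1 for E vs. RE (4%, against 9.37%). *Nkd2*, which binds Dishevelled and dampens the signal, was at 1.08 and 2.73 ppm in the E libraries, 1.67 and 2.05 ppm in the M libraries and 16.3 and 13.0 ppm in the RE libraries (3.01 in E vs. RE, limma adjusted p = 0.00202). *Tnks* was called in E vs. M (1.98) and *Csnk1e* in M vs. RE (−1.02). *Ctnnb1*, which encodes β-catenin, was at 931 and 805 ppm in the E libraries, 983 and 913 ppm in the M libraries and 1483 and 1296 ppm in the RE libraries, and was not called (0.68 in E vs. RE, limma adjusted p = 0.0173). In the nucleus, the co-repressor *Tle2* was higher in the RE cells than in the E cells (2.03, limma adjusted p = 0.000683) and the M cells (1.99, limma adjusted p = 0.000288). *Tle3* was called in M vs. RE at the fold threshold. The repressor *Hbp1* was likewise higher (1.24 in both, limma adjusted p = 0.00352 and 0.00238). In the planar polarity and calcium class, 5 of 26 genes (19.2%, against 9.37% of all genes) were called in E vs. RE, all higher after reversion (6.2% of all genes were higher and 3.17% lower), namely *Prickle1* (1.83), *Nfatc1* (1.56), *Daam2* (1.45), *Vangl1* (1.29) and *Camk2d* (1.05). In E vs. M, 6 of the 26 were called (23.1%, against 17%), with *Nfatc2* (2.43), *Prickle1* (1.34) and *Nfatc3* (1.27) higher and *Camk2b* (−2.38), *Daam2* (−1.83) and *Camk2d* (−1.08) lower in the M cells. After withdrawal, *Daam2* (3.28), *Camk2b* (2.47) and *Camk2d* (2.13) were called higher than at the M stage. These were the only calls of the class for M vs. RE, 3 of 26 (11.5%), below the 12.9% of all genes. *Prickle1* and *Vangl1* are core polarity genes, and *Daam2* links Dishevelled to the actin cytoskeleton. Their relatives were not called in E vs. RE, with *Vangl2* at −0.20, *Prickle2* at 2.04, *Prickle3* at −0.57 and *Prickle4* at −0.34. Nor were *Celsr1* (0.03), *Celsr2* (−0.44), *Celsr3* (0.44) and *Scrib* (−0.53), so the polarity genes did not rise as a set.

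The commonly used β-catenin targets gave no common direction. Of the 18 tested, 10 were called in E vs. M (6 up, 4 down; 55.6%, against 17% of all genes), 11 in M vs. RE (6 up, 5 down; 61.1%, against 12.9%) and 6 in E vs. RE (4 up, 2 down; 33.3%, against 9.37%), and many of them are known to answer to other signals as well. *Wisp1* was raised in the M cells (5.13, limma adjusted p = 7.8e-05) and *Jag1* too (4.05, limma adjusted p = 9.2e-05), while *Fst* (−5.19, limma adjusted p = 1.2e-05) and *Bmp4* (−4.78, limma adjusted p = 1e-05) fell. *Myc* was at 229 and 334 ppm in the E libraries, 85.0 and 70.6 ppm in the M libraries and 116 and 115 ppm in the RE libraries (−1.26 in E vs. RE, limma adjusted p = 0.0039). *Ccnd1*, which encodes cyclin D1, was at 211 and 297 ppm, 182 and 185 ppm, and 91.2 and 102 ppm (−1.38 in E vs. RE, limma adjusted p = 0.00196). *Wisp2* (1.99), *Id2* (1.88), *Ephb2* (1.12) and *Sox9* (1.08) were higher in the RE than in the E cells. *Cd44* (1.93), *Vegfa* (1.48) and *Ppard* (1.22) were called higher and *Ephb3* (−1.16) lower in E vs. M, and *Plaur* was called lower in M vs. RE (−1.23). As for the members, the E vs. RE calls among all 95 pathway genes tested depended on single libraries. The E vs. RE calls over all genes did so too, as given above. In E vs. M, fewer of the pathway genes and fewer of all genes were called without M replicate 1 or 2.

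**Figure D4:**
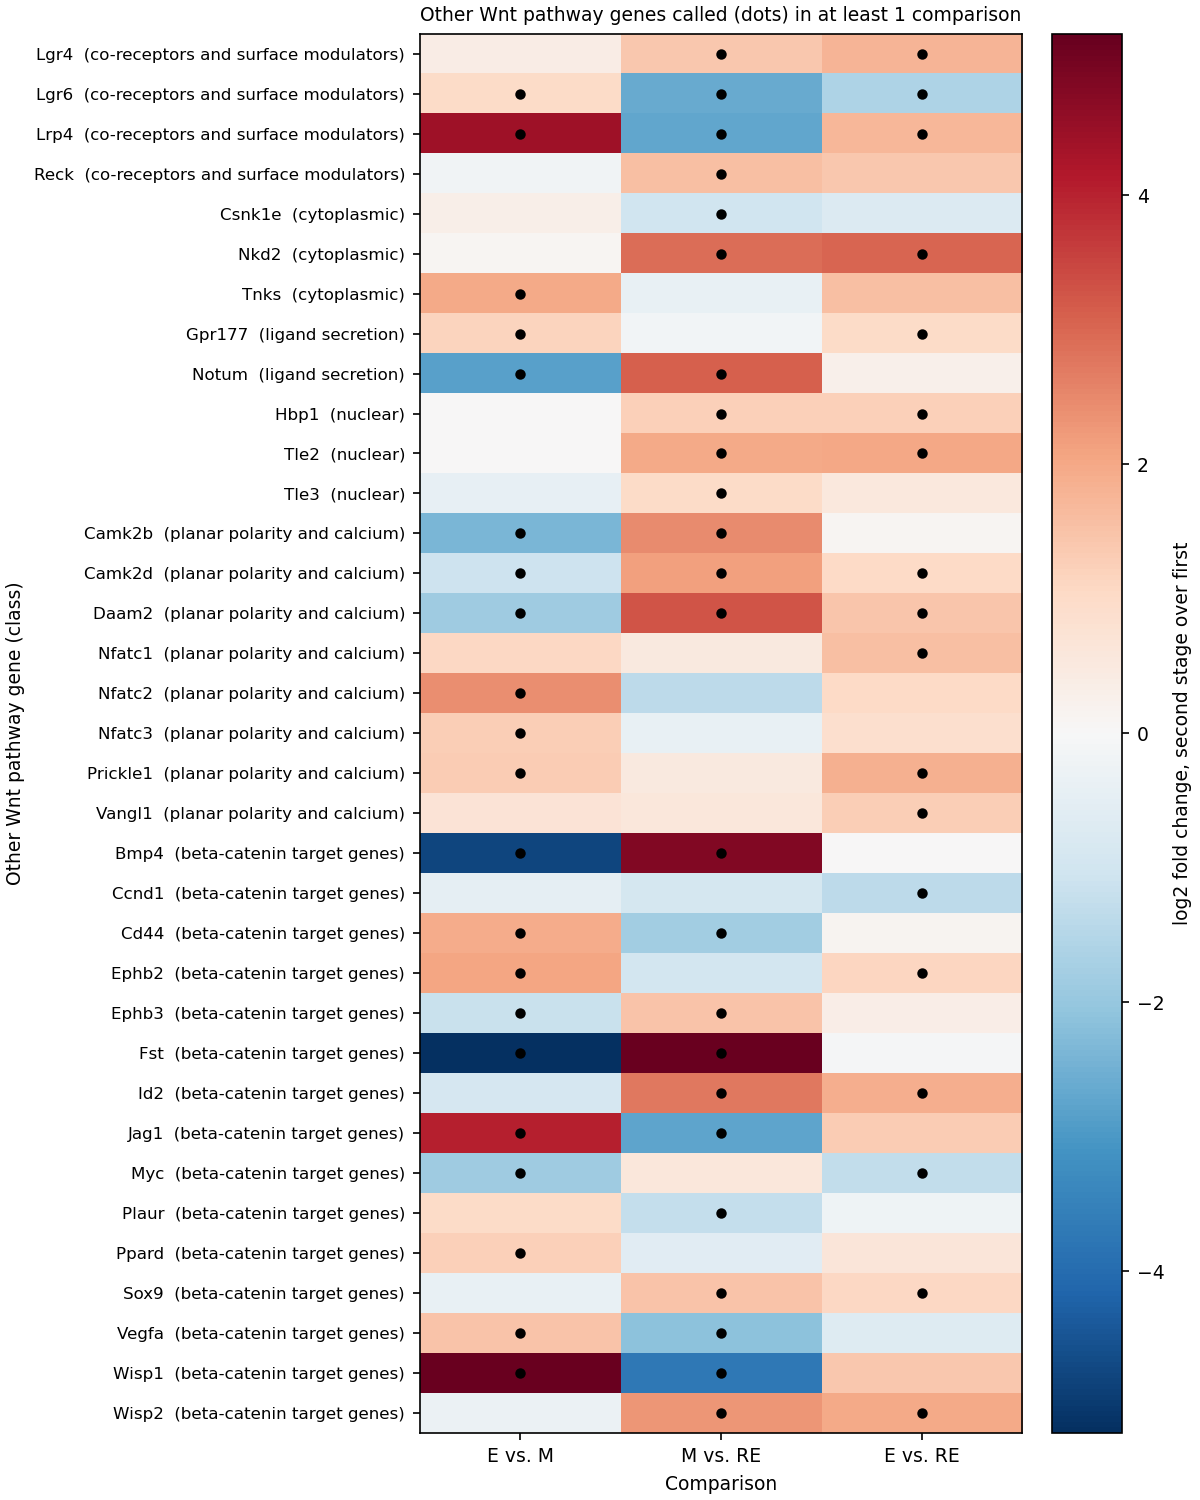
log2 fold change (colour, second stage over the first) of the 35 other Wnt pathway genes called in at least 1 of E vs. M, M vs. RE and E vs. RE, grouped by class, with a dot where a gene was called. In the E vs. RE column, *Nkd2* (3.01) and *Tle2* (2.03) are the strongest reds, and the dots on blue are those of *Lgr6* (−1.61), *Ccnd1* (−1.38) and *Myc* (−1.26).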

How the data were processed

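RNA from E, M and RE cells of EpH4 was sequenced by the authors (2 libraries per stage, 6 in all), who mapped the unique reads to NCBI-m37 with Bowtie and TopHat2. The authors deposited 1 table of whole numbers for 17428 genes, which behave as coverage (signal): among values from 1 to 400, between 44.8% and 48.4% per library are multiples of 50. The step that summed reads per gene is not given in the sources used here, so overlapping genes may share coverage. Columns were assigned by their names, and p-values measure the spread between the libraries, called biological replicates in the study.

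Coverage was scaled by TMM without weights (usual trims, factors 0.871 to 1.12) in R 4.3.3. Genes that reached 500 bases in 2 or more libraries were fitted with limma 3.58.1 on log2(ppm + 0.1), all libraries, stage only, with a trend on mean level. Calls used the fold and p thresholds of the study's methods, and the smaller fold threshold of its results text was an alternative. The study's edgeR test needs read counts and was not run. Exon lengths were unions of protein-coding exons (GENCODE M21, GRCm38). The fit was tested on simulated data, where it missed part of the genes changed.

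The members and lists were chosen with earlier results of these data known. Named genes are the members called or with an adjusted p below 0.05, the leading member of each class and called pathway genes. For promoters, 26 of the 43 members matched the RefSeq table. *Tcf7l1* and *Wif1*, named in the rule, and other members of these families were not analysed here.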

Additional observations from a re-analysis of the deposited data

How the results depend on the processing

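Of 51 values followed (members with an adjusted p below 0.05 in a comparison), 28 were called, and none of 748 recomputed values changed direction; 655 kept their side of the threshold, 71 lost the call and 22 gained it. When the third stage was left out of the fit, the calls in E vs. RE numbered 2 for the members and 6 for the other pathway genes. Over all genes they numbered 525, against 1302 in the fit of all stages. At an adjusted p of 0.05 in the fit of all stages, 13 members were called in E vs. RE. With the fold threshold lowered to 1.5, 11 members were called for E vs. M, 12 for M vs. RE and 10 for E vs. RE. The shares of all genes called at these other thresholds were not taken. Without 1 library at a time, the members called ranged from 5 to 14 in E vs. M, from 4 to 10 in M vs. RE and from 0 to 15 in E vs. RE, and the other pathway genes from 11 to 30, from 17 to 26 and from 0 to 29. The cause was not tested. Such fits leave 1 library in a group, which is assumed to vary like the others, and E replicates were the most unequal. Scaling by library totals shifted the median of all genes by −0.29 in E vs. M and by 0.20 in M vs. RE, and the share of all calls that were higher went from 50.6% to 30.5% and from 62.8% to 73.8%. With this scaling, the members called were 7 up and 3 down in E vs. M and 6 up and 5 down in M vs. RE, so the splits by direction depended on it. The filter in every library left out *Rspo1* and other low members.

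Same-numbered libraries deviated together only weakly (correlation across genes 0.27 between E and M, 0.12 between M and RE, 0.058 between E and RE), and the labels do not say that the numbers pair them. With the replicate number as a block, 10, 10 and 10 members were called in E vs. M, M vs. RE and E vs. RE, among them all 28 calls of the fit without it, with *Dkk3* and *Tcf7* gained in E vs. RE. Over all genes the block gave 2431, 1830 and 1284 calls against 2358, 1789 and 1302.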
